A study of Mus musculus with 4 samples.

Results

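The genes described here are 10 cytokine and receptor genes of the IL-6, IL-10 and IL-12 families, taken by gene name from a deposited table of read counts for 54532 mouse genes. They are the ligand genes Osm, Lif, Il6, Il12b, Il27 and Il10 and the receptor genes Il6st, Il6ra, Il10ra and Il10rb. All 10 names were found, each once, and 8 of the 10 had at least 10 reads in at least 1 library, as did 13715 of all genes. Il12b and Il10 did not reach that number and are given by their reads.

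RNA was sequenced from wild-type mouse macrophages of the peritoneal fluid, which the study's methods describe as harvested from adult BALB/c mice after an injection of thioglycollate broth into the peritoneum. There were 4 libraries, 1 for each culture condition: normal medium with DMSO, normal medium with 10 µM CH223191, 30% 4T1-CM with DMSO, and 30% 4T1-CM with 10 µM CH223191. 4T1-CM is medium conditioned by 4T1 cells, a mouse mammary carcinoma line. CH223191 is an antagonist of the aryl hydrocarbon receptor (AHR), a ligand-activated transcription factor, and DMSO is its solvent. The number of mice behind a library and the duration of culture are not given in the sources used here. Cells recruited by thioglycollate are elicited macrophages and not those resident in an undisturbed peritoneum, and the labels give no sort of the cells. With 1 library per condition no spread between cultures can be measured. An interval given below therefore covers counting error in the libraries named and says nothing of how another culture would differ.

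IL-6, leukemia inhibitory factor (Lif) and oncostatin M (Osm) form a family of cytokines that signal through a shared receptor chain, gp130, encoded by Il6st. IL-6 first binds IL-6Rα (Il6ra), while oncostatin M and LIF recruit gp130 together with the chains encoded by Osmr or Lifr. IL-12, IL-23 and IL-27 are heterodimers: p40 (Il12b) pairs with p35 (Il12a) or p19 (Il23a), and p28 (Il27) pairs with the product of Ebi3. IL-10 acts on macrophages through IL-10R1 (Il10ra) and IL-10R2 (Il10rb), and restrains their production of inflammatory cytokines. These receptors activate JAK kinases and STAT proteins, STAT3 foremost for IL-6 and IL-10, and SOCS3 is an induced inhibitor of gp130 signaling.

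The libraries held 15535405, 16129075, 17557127 and 16388246 reads in genes for normal medium with DMSO, normal medium with CH223191, 4T1-CM with DMSO and 4T1-CM with CH223191. Values below stand in this order. Levels are given as reads and as CPM, the reads scaled to the size of the library with TMM factors, in which 3 reads correspond to between 0.171 and 0.189 CPM. All 8 macrophage markers were detected in every library, and their summed level was 14304, 18502, 40648 and 43446 CPM, of which Lyz2 alone gave 11889, 15186, 32954 and 35569 CPM. Most markers of T and NK cells, B cells and mast cells were at or near 0 in every library. The summed level of 6 fibroblast markers was 63.0, 30.1, 149 and 127 CPM, and that of 9 neutrophil markers was 67.6, 74.6, 242 and 181 CPM, nearly all of it Csf3r, S100a8 and Mmp8, with the neutrophil genes Ly6g, Retnlg and S100a9 at 0 reads throughout. In bulk RNA, fewer cells of a type and less RNA per cell cannot be told apart.

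The promoters of 2 ligand genes and of the shared receptor gene are shown first, since Il6 and Lif were higher and Il6st was lower with 4T1-CM. Each run is the 250 bases before the gene's RefSeq start (GRCm38.p6), on the strand of the gene. Capitals mark matches to 4 motifs searched on both strands: the AHR core GCGTG, the AP-1 motif TGANTCA, the C/EBP motif TTGNGNAA and the NF-kB motif. A STAT motif, TTCNNNGAA, had no match in these 3 windows.
Il6, chr5:30012864-30013113, + strand: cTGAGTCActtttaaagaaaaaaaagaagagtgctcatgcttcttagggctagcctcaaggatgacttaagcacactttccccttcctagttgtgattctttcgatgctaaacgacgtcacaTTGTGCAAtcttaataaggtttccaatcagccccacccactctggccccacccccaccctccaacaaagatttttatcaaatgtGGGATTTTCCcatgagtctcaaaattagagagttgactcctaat
Lif, chr11:4257318-4257567, + strand: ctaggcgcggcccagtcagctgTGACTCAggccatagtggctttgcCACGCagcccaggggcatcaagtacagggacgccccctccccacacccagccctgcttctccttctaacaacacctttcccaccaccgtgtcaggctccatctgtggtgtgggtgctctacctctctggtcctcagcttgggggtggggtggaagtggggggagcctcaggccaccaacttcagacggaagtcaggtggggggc
Il6st, chr13:112463820-112464069, + strand: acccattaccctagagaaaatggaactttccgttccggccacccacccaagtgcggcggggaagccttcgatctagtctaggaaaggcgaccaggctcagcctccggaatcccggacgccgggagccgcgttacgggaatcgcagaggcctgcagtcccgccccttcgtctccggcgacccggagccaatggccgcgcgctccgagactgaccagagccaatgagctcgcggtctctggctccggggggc

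Counted from the RefSeq start, the Il6 run held TGAGTCA from position -249, TTGTGCAA from -128 and the NF-kB match GGGATTTTCC from -44. The Lif run held TGACTCA from position -228 and CACGC, the AHR core read on the other strand, from -204. The Il6st run held none of the motifs. Of 32851 mouse promoters of this length, 28.2% held the AHR core, 6.75% the AP-1 motif, 11.7% the C/EBP motif, 3.90% the NF-kB motif and 7.02% the STAT motif. Of the other genes with a promoter sequence at hand, Il6ra had 1 match, to the C/EBP motif, and Il12b had none. No promoter sequence was at hand for Osm, Il10, Il27, Il10ra and Il10rb, which were not searched. A match is a run of letters, and binding at these positions was not measured.

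Osm and Lif were higher with 4T1-CM than with normal medium, with either DMSO or CH223191, and Il6 was read only in the 4T1-CM libraries. Osm, the most abundant of the 6 ligand transcripts, lies on chr11:4236420-4241026 (GRCm38), has 3 exons and codes for a cytokine that acts on stromal, endothelial and liver cells. It had 66 and 74 reads in normal medium and 327 and 315 reads in 4T1-CM, or 4.14, 4.65, 18.7 and 19.4 CPM. Both 4T1-CM libraries lay above both normal medium libraries, and within each medium the intervals of the levels overlapped. The log2 ratio of 4T1-CM to normal medium was 2.17 with DMSO (95% interval 1.79 to 2.58), a 4.49-fold difference. In the presence of CH223191 it was 2.05 (1.69 to 2.44), a 4.15-fold difference.

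Lif lies on chr11:4257557-4272514 in the same orientation, 16.5 kb beyond Osm, and has 4 exons. LIF is known for sustaining embryonic stem cells and for its part in the acute-phase response. Lif had 3, 6, 44 and 36 reads, or 0.188, 0.377, 2.51 and 2.22 CPM. The 4T1-CM libraries were again the higher pair, from a level in normal medium of only a few reads. For Lif the ratio of 4T1-CM to normal medium on the log2 scale was 3.54 with DMSO (2.10 to 6.07) and 2.46 with CH223191 (1.29 to 4.09).

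Il6 lies on chr5:30013114-30019981, has 5 exons and codes for the founding cytokine of the family. It had 0 reads in both normal medium libraries and 10 reads in each 4T1-CM library, or 0.571 and 0.616 CPM. Against 3 reads, the one-sided 95% limit taken for a count of 0 in a library, Il6 was at least 3.03-fold higher in 4T1-CM with DMSO and at least 3.26-fold higher with CH223191. Bounds of this kind leave out the counting error of the other library, whose 10 reads had intervals of 0.274 to 1.05 CPM and 0.295 to 1.13 CPM. Il6 and Lif reached 10 reads only in the 4T1-CM libraries, so their place among the genes kept already depended on those libraries. Of the 6 fibroblast markers, Col1a1, Col1a2, Col3a1 and Dcn were also higher in the 4T1-CM libraries, while Lum had at most 3 reads and Pdgfra had 91, 49, 83 and 70 reads. The part of other cell types in these ligand reads was not tested.

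**Figure D1:**
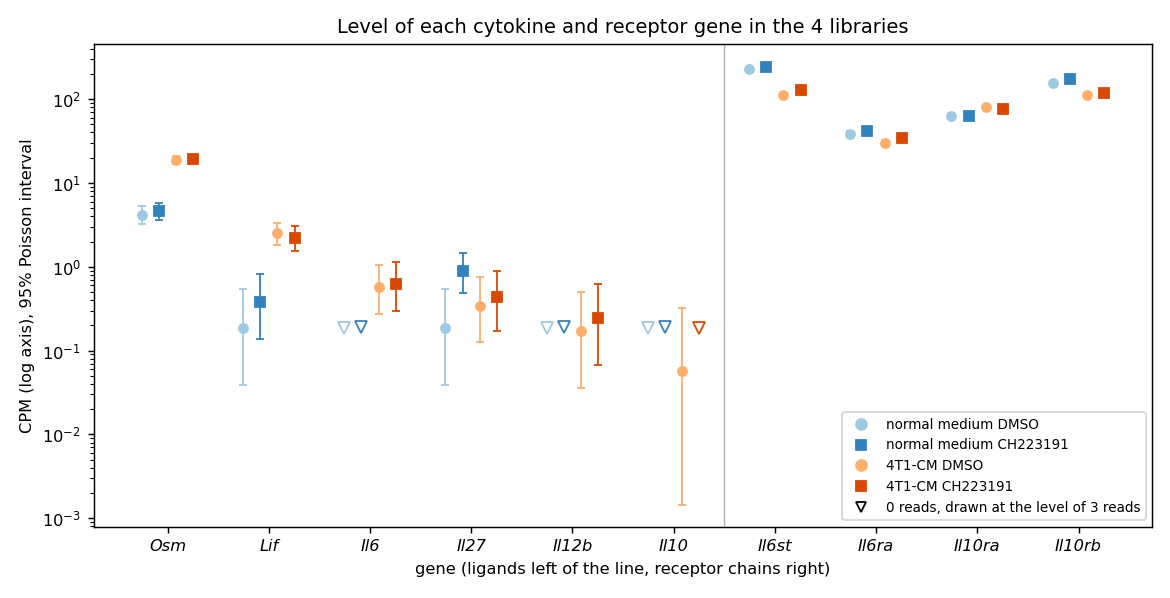
Level of each of the 10 genes in CPM on a log axis, in the 4 libraries, with 95% Poisson intervals of the reads; open triangles are libraries with 0 reads, drawn at the level of 3 reads. Osm and Lif lie higher in both 4T1-CM libraries, Il6 has 10 reads in each of them and 0 in normal medium, and the 4 receptor genes lie between 29.8 and 241 CPM everywhere.

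The IL-12 family genes were sparse. Il12b, on chr11:44400063-44414033 with 8 exons, codes for p40, the chain that IL-12 and IL-23 share. It had 0 reads in both normal medium libraries and 3 and 4 reads in 4T1-CM with DMSO and with CH223191, or 0.171 and 0.246 CPM. The counting intervals of all 4 libraries overlapped, so no fold is given. Its partner Il12a had 0, 0, 13 and 5 reads, which placed it at least 3.95-fold higher in 4T1-CM with DMSO, while with CH223191 the interval of its 5 reads overlapped that of 0 reads. Il12a was kept only through the library of 4T1-CM with DMSO. Il23a, the partner of p40 in IL-23, had 0 reads in every library. Reads of p40 and p35 thus appeared in the same libraries, at levels too low to compare further.

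Il27, on chr7:126589010-126594941 on the minus strand with 5 exons, codes for p28. It had 3, 14, 6 and 7 reads, or 0.188, 0.880, 0.343 and 0.431 CPM. The library with normal medium and CH223191 was the highest, and the counting intervals of all 4 levels overlapped. Between media its log2 ratio, 4T1-CM to normal medium, was 0.77 with DMSO (-1.36 to 3.49) and -0.98 with CH223191 (-2.58 to 0.37). Neither interval excluded 0. Il27 overlaps Apobr on the opposite strand and shares 5.56% of its 50-base words with it, and Apobr had 2024, 2329, 760 and 971 reads. The strand setting of the counting is not given in the sources used here, so a read of Apobr placed in Il27 could not be told apart from its own.

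Ebi3, the partner of p28, had 33, 72, 175 and 190 reads, or 2.07, 4.53, 10.0 and 11.7 CPM. Ebi3 was therefore far above Il27 per length, at 8.66 against 0.336 RPKM (CPM per kilobase of gene length) in 4T1-CM with DMSO. Its log2 ratio of 4T1-CM to normal medium was 2.26 with DMSO (1.73 to 2.85) and 1.36 with CH223191 (0.97 to 1.78). Of the 2 chains of IL-27, Ebi3 was thus the one whose reads were higher in 4T1-CM beyond counting error. The summed level of 5 dendritic cell markers was also higher in the 4T1-CM libraries, at 1.82, 1.01, 3.77 and 3.20 CPM. Ccr7 had 0, 1, 24 and 13 reads and Clec9a 6, 0, 23 and 13 reads. The other markers showed no such difference, with Zbtb46 at 20, 14, 16 and 22 reads, Xcr1 at 3, 1, 3 and 2 reads and Flt3 at 0 in the first 3 libraries. The part of dendritic cells in the reads of Il12a, Il12b and Ebi3 was not tested.

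Il10, on chr1:131019845-131024974 with 5 exons, had 1 read in 4T1-CM with DMSO and 0 reads in the other 3 libraries. Taken at 3 reads, a count of 0 allows up to 0.188, 0.189 and 0.185 CPM in normal medium with DMSO, normal medium with CH223191 and 4T1-CM with CH223191. Expression of Il10 was not detectable at this depth, and no fold was taken in any comparison.

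The receptor genes were well covered, with at least 521 reads in every library, and differed less between media than the ligand genes Osm and Lif did. Il6st, on chr13:112464070-112510086 with 15 exons, had 3665, 3833, 1939 and 2105 reads. The corresponding levels were 229.9, 241, 110.8 and 129.6 CPM, so both 4T1-CM libraries lay below both normal medium libraries. The log2 ratio of 4T1-CM to normal medium was -1.05 with DMSO (-1.13 to -0.97) and -0.90 with CH223191 (-0.97 to -0.82). The summed level of 4 eosinophil markers was lower in these libraries too, at 16.2, 14.4, 6.17 and 5.79 CPM, nearly all of it Siglecf, with Prg2 and Epx at 0 reads throughout, and its part in the Il6st reads was not tested. The gp130 transcript was thus lower in the same libraries in which the Osm and Lif transcripts were higher.

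Il6ra, on chr3:89864059-89913196 on the minus strand with 10 exons, codes for the chain that binds IL-6. Its level was 38.5, 41.4, 29.8 and 34.5 CPM, from 614, 658, 521 and 560 reads. Its log2 ratio of 4T1-CM to normal medium was -0.37 with DMSO (-0.54 to -0.20) and -0.26 with CH223191 (-0.43 to -0.10). Il6ra was lower in 4T1-CM, as was Il6st, by a smaller amount. It overlaps an antisense gene, Gm42809, which had at most 1 read in a library.

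Osmr and Lifr, the partners of gp130 for oncostatin M and LIF, were scarce. Osmr had 8, 3, 54 and 60 reads, with log2 ratios of 4T1-CM to normal medium of 2.55 with DMSO (1.54 to 3.90) and 4.08 with CH223191 (2.67 to 6.61). Lifr had 20, 16, 28 and 31 reads, with log2 ratios of 0.34 (-0.53 to 1.26) and 0.90 (0.01 to 1.89). Osmr was higher in 4T1-CM with either inhibitor condition, and for Lifr the interval with DMSO included 0. Even so, in 4T1-CM with DMSO Osmr stood at 0.255 RPKM and Lifr at 0.148 RPKM, against 9.98 RPKM for Il6st. Of the fibroblast markers, Col1a1, Col1a2, Col3a1 and Dcn were higher in the same libraries, while Lum was not and Pdgfra was highest in normal medium with DMSO. The part of fibroblasts in the Osmr reads was not tested.

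The chains of the IL-10 receptor differed in opposite directions. Il10ra, on chr9:45253837-45269149 on the minus strand with 7 exons, codes for the ligand-binding chain. Its level was 62.4, 62.6, 79.9 and 75.3 CPM, from 994, 996, 1398 and 1224 reads. This gave log2 ratios of 4T1-CM to normal medium of 0.36 with DMSO (0.24 to 0.48) and 0.27 with CH223191 (0.14 to 0.39). Il10ra was the one receptor gene of the 4 with more CPM in both 4T1-CM libraries.

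Il10rb, on chr16:91406164-91425834 with 7 exons, codes for an accessory chain that the receptors of IL-22 and type III interferon also use. Its level was 157, 175, 113 and 117 CPM, from 2504, 2776, 1976 and 1907 reads. The log2 ratio of 4T1-CM to normal medium was -0.48 with DMSO (-0.56 to -0.39) and -0.57 with CH223191 (-0.66 to -0.49). Il10rb shares 13.9% of its 50-base words with other genes, nearly all with Gm21970, which overlaps it on the same strand and had at most 2 reads in a library. The next gene on the chromosome, Ifnar2, a chain of the type I interferon receptor, ends 574 bases before Il10rb. Ifnar2 had 1371, 1658, 3377 and 3441 reads, with log2 ratios of 1.16 with DMSO (1.07 to 1.26) and 1.02 with CH223191 (0.94 to 1.11). These neighbours thus differed in opposite directions between the media.

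**Figure D2:**
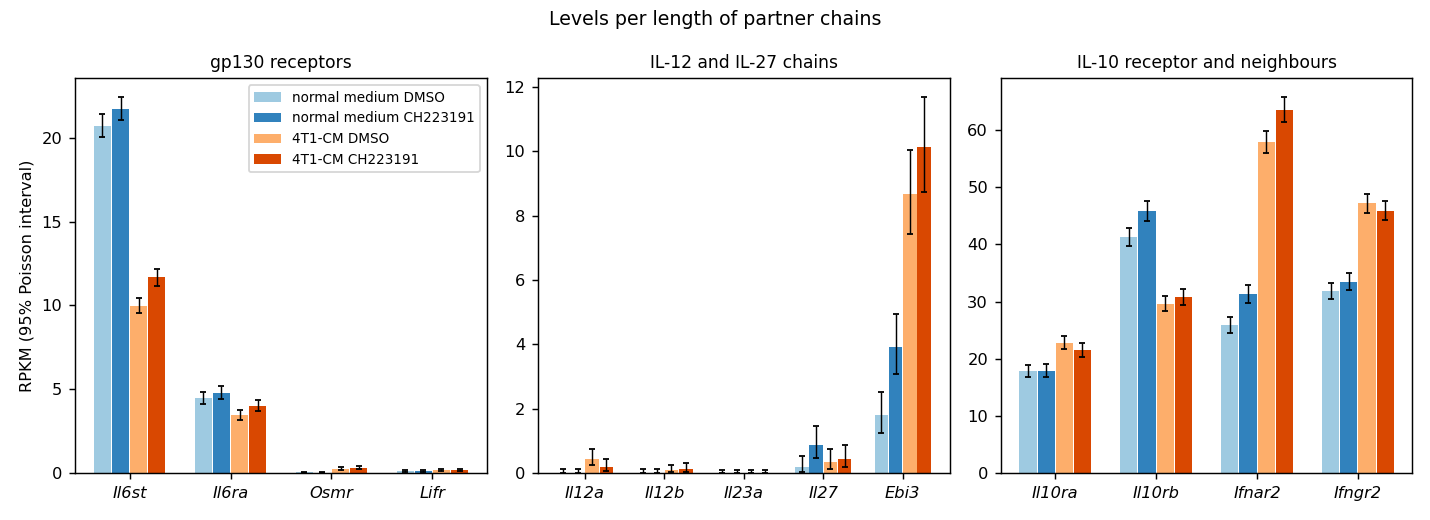
Level per length in RPKM, with 95% Poisson intervals, of receptor chains that use gp130, of the chains of IL-12, IL-23 and IL-27, and of Il10ra and Il10rb with 2 neighbouring interferon receptor genes, in the 4 libraries. Il6st is lower in the 4T1-CM libraries, Ebi3 stands far above the other cytokine chains, and Il10rb and Ifnar2 differ between media in opposite directions.

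Compared per length, the order of the genes in normal medium with DMSO was Il10rb at 41.3 RPKM, Il6st at 20.7, Il10ra at 17.8, Il6ra at 4.46, Osm at 1.82, Il27 at 0.184 and Lif at 0.0433, with Il6, Il12b and Il10 at 0 reads. The intervals of the first 5 genes did not overlap each other. Those of Il27 and Lif overlapped, and so did those of the 3 genes at 0. In 4T1-CM with DMSO the order was Il10rb at 29.6 RPKM, Il10ra at 22.8, Il6st at 9.98, Osm at 8.22, Il6ra at 3.44, Lif at 0.578, Il27 at 0.336, Il6 at 0.235, Il12b at 0.0871 and Il10 at 0.0436. There the intervals of the first 6 genes did not overlap each other, and those of neighbours from Lif downward did. Il10ra and Osm each stood above a gene that was higher than them in normal medium, Il6st for Il10ra and Il6ra for Osm, and this held with CH223191 too.

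A gene at least 2-fold apart between 2 libraries was counted as called. Only genes kept could be called, so Il12b and Il10 could not be. In 4T1-CM with DMSO, 3 of the 10 genes were called higher (Osm, Lif and Il6), where 12.0% of the 13715 genes kept were called higher. Il6st alone was called lower, where 6.07% of genes were. With CH223191 the same 3 genes were called higher, where 11.8% of genes were, and 0 were called lower, where 7.77% of genes were. Il6st at a log2 ratio of -0.90 and Il27 at -0.98 lay just inside the 2-fold limit. The median log2 ratio of the 8 genes kept was 0.56 with DMSO and 0.00 with CH223191, against 0.01 and 0.02 over all genes kept. The difference between these medians rests on Il27, with 3 to 14 reads in a library, which lay above the middle with DMSO (0.77) and below it with CH223191. The comparisons with DMSO and with CH223191 share no library, and the 3 genes were called higher in both, where 7.91% of all genes kept were. Of the 3, Il6 and Lif were kept only through the 4T1-CM libraries in which they were high, so their calls are not independent of the filter. None of the 10 was called lower in both, where 3.32% were.

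**Figure D3:**
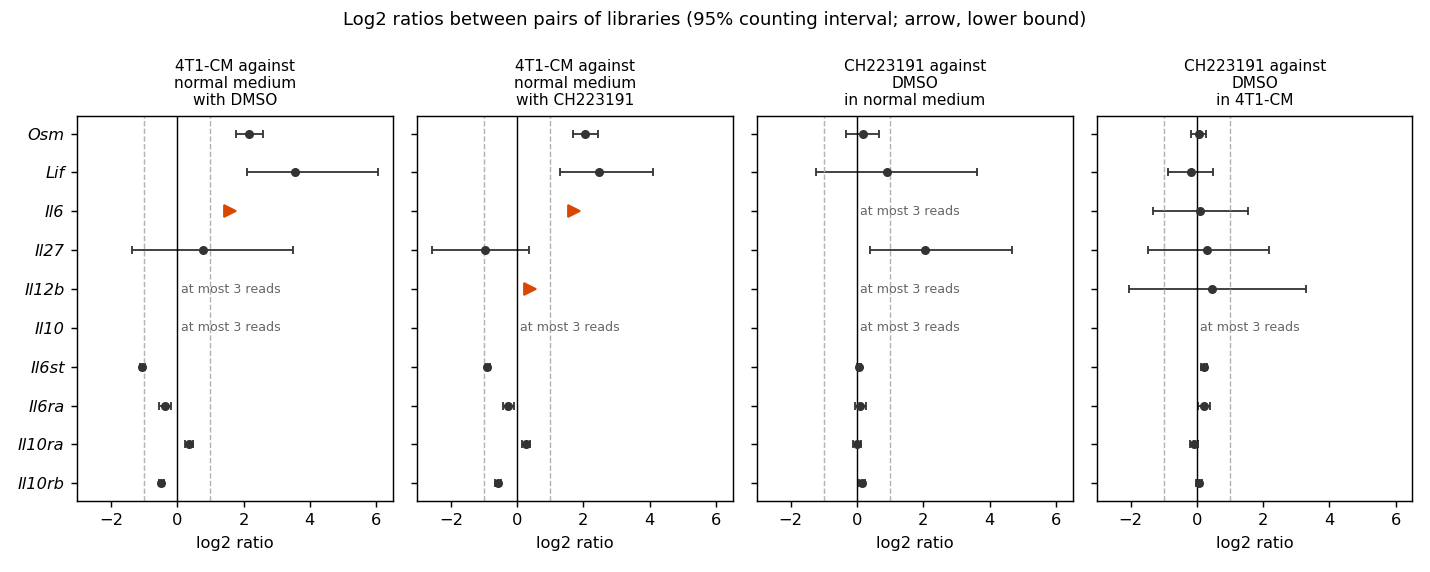
Log2 ratios of the 10 genes in the 4 comparisons between libraries, with 95% counting intervals as bars; arrows are ratios to 3 reads where the reference library had 0 reads, without the counting error of the other library, and dashed lines mark a 2-fold difference. Osm, Lif and Il6 lie beyond the upper dashed line in both 4T1-CM comparisons, and in the CH223191 comparisons only Il27 in normal medium does.

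With CH223191, the counts of these genes called were near the share over all genes. In normal medium, where 7 of the 10 genes had a value, 1 was called higher with CH223191 than with DMSO, and 0 were called lower. Over all genes kept, 4.29% were called higher and 2.86% lower. That gene was Il27, with 14 against 3 reads and a log2 ratio of 2.05 (0.38 to 4.67). It was kept through the library in which it was high. In 4T1-CM, 0 of the 10 genes were called in either direction, where 2.63% of genes were called higher and 2.51% lower. None was called in the same direction in both media, as 0.569% of genes were for higher and 0.328% for lower.

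For the abundant receptor genes the counting intervals were narrow. In 4T1-CM, Il6st was higher with CH223191 by a log2 ratio of 0.23 (0.14 to 0.32) and Il6ra by 0.21 (0.04 to 0.39). In normal medium the ratio of Il6st was 0.07 (0.00 to 0.13) and that of Il10rb was 0.15 (0.07 to 0.23). For Il6st these differences were smaller than those between media, while for Il6ra the 0.21 was close in size to its difference between media with CH223191, -0.26. Osm had a log2 ratio of CH223191 to DMSO of 0.17 (normal medium) and 0.05 (4T1-CM), and Il6 had one of 0.10 in 4T1-CM (-1.31 to 1.53).

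The response to 4T1-CM with CH223191 was set against that with DMSO as the difference of the 2 log2 ratios. For Il6st the difference was 0.16 (0.05 to 0.27), the lower level in 4T1-CM being less marked with CH223191. For Osm it was -0.11 (-0.64 to 0.41), for Lif -1.08 (-3.18 to 1.01) and for Il27 -1.75 (-4.14 to 0.64). The difference was 0.11 (-0.13 to 0.34) for Il6ra, -0.09 (-0.26 to 0.08) for Il10ra and -0.10 (-0.22 to 0.02) for Il10rb. Apart from Il6st, no gene with a value had an interval that excluded 0, and the width for Lif and Il27 leaves room for differences of several-fold. How far cultures of 1 condition differ was not measured, so no difference between responses was tested.

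The other genes of these pathways were taken as lists. Of 14 other ligand genes, 6 had 0 reads in every library and 5 were kept. Among those reported here, Ebi3, described above, was called higher in 4T1-CM in both comparisons, where 7.91% of all genes kept were. In either comparison 0 genes of the list were called lower, where 6.07% of genes were with DMSO and 7.77% with CH223191. With 5 genes kept, a count of 0 is near that share.

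Of 15 other receptor chains, 9 were kept, 2 of them (Osmr and Ifnar2) were called higher in both 4T1-CM comparisons, where 7.91% of all genes were, and 1, Il12rb2, was called lower, where 3.32% were. Osmr was kept only through the 4T1-CM libraries. Il12rb2, the signaling chain of the IL-12 receptor, had 87, 84, 16 and 16 reads, with log2 ratios of -2.54 with DMSO (-3.45 to -1.80) and -2.39 with CH223191 (-3.29 to -1.64). Its partner Il12rb1 had 8, 6, 9 and 13 reads. Il27ra, the receptor chain of IL-27, had 82, 105, 61 and 46 reads, with log2 ratios of -0.56 (-1.06 to -0.07) and -1.21 (-1.75 to -0.71). Transcripts of the IL-12 and IL-27 receptor chains Il12rb2 and Il27ra were thus both lower in 4T1-CM.

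Of 17 kinases, STAT proteins and inhibitors of the pathway, with the sheddase genes Adam10 and Adam17 counted among them, all were kept, 4 were called higher in both 4T1-CM comparisons (7.91% of all genes) and 0 were called lower in both (3.32%). Of the 4, Cish and Stat4 did not reach 10 reads outside 4T1-CM and were kept only through those libraries. Socs3 had 20, 44, 1622 and 1385 reads, with log2 ratios of 6.17 with DMSO (5.57 to 6.92) and 4.93 with CH223191 (4.51 to 5.41). Cish, an inhibitor induced through STAT5, had 0, 0, 15 and 24 reads, which made it at least 4.55-fold and at least 7.83-fold higher. Socs2, of the same family of inhibitors, had 18, 9, 64 and 86 reads, and Stat4, a transducer of IL-12 signals, had 2, 1, 9 and 11 reads, with log2 ratios of 1.81 (-0.24 to 5.28) and 2.91 (0.65 to 8.86), the first of which included 0. Not every inhibitor in the list was higher: Socs1 had log2 ratios of -0.48 and 0.08, Ptpn6 of -0.08 and -0.47 and Pias3 of 0.11 and -0.24.

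Of 14 genes known to be induced through STAT3 by IL-6 or IL-10 in macrophages, 13 were kept, 5 were called higher in both 4T1-CM comparisons and 0 lower, against 7.91% and 3.32% of all genes. The list includes Socs3. Saa3, an acute-phase protein, had 209, 376, 13725 and 13223 reads, with log2 ratios of 5.90 with DMSO (5.70 to 6.11) and 5.10 with CH223191 (4.96 to 5.26). Bcl3, a nuclear IkB protein, had 89, 76, 615 and 572 reads and ratios of 2.65 (2.33 to 2.99) and 2.87 (2.53 to 3.25). Nfil3, a bZIP repressor, had 76, 89, 544 and 523 reads and ratios of 2.70 (2.36 to 3.07) and 2.52 (2.20 to 2.86). The median log2 ratio of the 13 genes was 0.77 with DMSO and 0.78 with CH223191, and the lowest ratio in the list was -0.45 with DMSO and -0.21 with CH223191. Several of these genes also answer to other signals, and which receptor lay upstream was not measured.

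**Figure D4:**
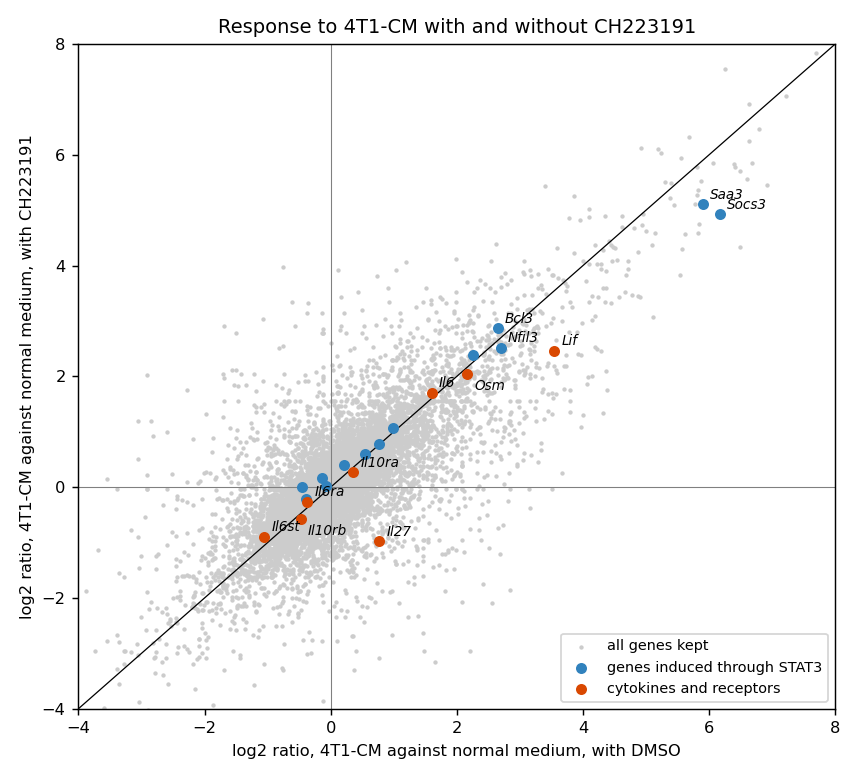
Log2 ratio of 4T1-CM to normal medium with CH223191 against that with DMSO, 1 point per gene kept that has both ratios and lies within the axes, with the cytokine and receptor genes in orange and 13 genes induced through STAT3 in blue; the line marks equal ratios, and bounds are drawn at their value. Osm, Il6, Bcl3 and Nfil3 lie near the line, Socs3, Saa3 and Lif below it, and Il27 has ratios of opposite sign.

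Of 17 factors that bind promoters or enhancers of these cytokine genes, 3 were called higher in both 4T1-CM comparisons and 1 was called lower in both, where the shares over all genes were 7.91% and 3.32%. Nfkbiz, which codes for IkBζ, a nuclear cofactor of NF-kB needed for Il6 induction, had 50, 35, 1130 and 1081 reads, with log2 ratios of 4.35 with DMSO (3.95 to 4.80) and 4.90 with CH223191 (4.43 to 5.45). Ahr itself had 30, 21, 150 and 167 reads, with ratios of 2.17 (1.61 to 2.80) and 2.93 (2.30 to 3.69). Prdm1, which codes for the transcriptional repressor Blimp-1, had 149, 151, 365 and 358 reads. Batf3, a bZIP factor, had 96, 70, 50 and 24 reads and was the one called lower. In the CH223191 comparisons, 0 genes of any of these lists were called in the same direction in both media, where 0.569% of all genes were called higher and 0.328% lower, so a count of 0 is near the background. In normal medium alone, Ebi3 and Socs3 were called higher (4.29% of all genes) and Ctf1, Osmr and Cebpb lower (2.86%). In 4T1-CM alone, Ctf1 was called higher (2.63%) and Il12a lower (2.51%). Counting intervals included 0 for Osmr in normal medium (-3.96 to 0.65) and, in 4T1-CM, for Ctf1 (-0.17 to 2.74) and Il12a (-3.11 to 0.31).

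A fit over all 4 libraries with medium and inhibitor as additive terms, which leaves 1 residual degree of freedom and takes any interaction as noise, gives the only p-values. With edgeR's quasi-likelihood test and Benjamini-Hochberg adjustment over 13715 genes, 5 of the 8 genes passed an adjusted p of 0.05 for medium. Lif and Il6 were kept only through the 4T1-CM libraries, so their p-values are not independent of that filter. The 5 genes were Osm (adjusted p = 1.26e-05), Lif (0.00156) and Il6 (0.0179), which were higher in 4T1-CM, and Il6st (0.000236) and Il10rb (0.00884), which were lower. Over all genes, 16.4% passed as higher and 16.2% as lower. With DESeq2 the adjusted p was 4.83e-09 for Osm, 0.00910 for Lif, 0.0676 for Il6, 1.83e-07 for Il6st and 0.0152 for Il10rb, so Il6 did not pass, while 8.75% of all genes passed as higher and 8.91% as lower. Il6ra, Il10ra and Il27 did not pass with either tool, at adjusted p of 0.0843, 0.0738 and 0.779 with edgeR. For CH223191, 0 of the 8 genes passed with edgeR or with DESeq2, and 0 had an unadjusted p under 0.05 with either. Over all genes, 0.0729% passed as higher with CH223191 and 0.00729% as lower with edgeR, and 0.0875% and 0.00729% with DESeq2.

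For the 5 genes with at least 50 reads on average, the likeness of a pattern was taken as the root mean square difference of log2 CPM over the 4 libraries after centring each gene. The nearest gene to Osm was Birc3, at 0.025, with 239, 272, 1237 and 1159 reads. Pfn1 was nearest to Il10rb, at 0.010, Gm13509 to Il6st, at 0.024, Rbm18 to Il10ra, at 0.0083, and Gm5527 to Il6ra, at 0.0065. Among the 5 genes themselves, Il6ra and Il10rb were the most alike pair at 0.12, and Osm and Il6st the least alike at 1.54. A likeness over 4 libraries, picked as the smallest among all genes with as many reads, is a description only.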

How the data were processed

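The deposited table held whole-number counts of reads for each gene, without normalization by the authors, and gene lengths. Per the submitters' processing notes, HISAT2 2.0.5 and DESeq2 were used; the study's methods name featureCounts for its alveolar macrophage RNA-seq, and the counting tool of the present libraries, their strand setting and genome build are not given in the sources used here. Gene coordinates of the table equalled GENCODE M21 (GRCm38) for 53499 of 54409 shared genes. Libraries were NEBNext Ultra from total RNA. The members and lists were chosen with earlier results of these data known.

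A gene was kept if any 1 library had 10 or more of its reads (13715 genes). Of genes sharing a symbol, the entry with most reads kept the name and 103 entries were named by identifier. Counts were scaled with TMM (edgeR 4.0.16, R 4.3.3), and log2 ratios used a prior count of 0.5. Intervals are exact: Clopper-Pearson for the split of reads between libraries, Poisson for levels. They cover counting error only, and reads without molecular identifiers are not independent molecules. A library at 0 was taken at 3 reads for a bound, and 1 to 3 reads give a ratio with its interval. The interval of a difference of ratios is a normal approximation from the reads. Alternatives were DESeq2 1.42.0 size factors, total counts, a prior count of 5, no filter, at least 10 reads in every library, protein-coding genes alone, and additive edgeR and DESeq2 fits. The text names the 10 genes, their partner chains, and from each list at most 4 genes called alike in both comparisons of a pair, largest smaller ratio first, with the genes nearest in pattern; the interferon receptor neighbour, the gene overlapping Il27 and marker genes are named beside the results they touch. On simulated counts, 200 of 200 genes changed 8-fold were called in each 4T1-CM comparison of 13715 genes, and 0 of 10169 unchanged genes with at least 50 expected reads. An 8-fold change lies well beyond the 2-fold limit, and spread between cultures was not measured, so no support for the calls is drawn from this check. A result for 1 of the other ligand genes is not reported here. Promoter sequences are from RefSeq (GRCm38.p6), which matched 5 of the 10 genes. Python 3.11.15, numpy 2.4.6, pandas 2.3.3, scipy 1.17.1 and matplotlib 3.10.9 were used.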

Additional observations from a re-analysis of the deposited data

Results flagged for a closer look

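For 3 of the genes the direction of a response differed between the conditions it was measured in. Il27 had a log2 ratio of 4T1-CM to normal medium of 0.77 with DMSO and -0.98 with CH223191, from 3 to 14 reads in a library. Lif had a log2 ratio of CH223191 to DMSO of 0.90 where the medium was normal and -0.18 where it was 4T1-CM, from 3 and 6 reads in normal medium. Il10ra had a log2 ratio of CH223191 to DMSO of 0.0063 where the medium was normal and -0.084 where it was 4T1-CM, both within counting error. With 1 library per condition none of these differences was tested.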

How the results depend on the processing

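Of 347 values recomputed under the alternatives, 323 stayed within their counting interval (for counts, within 1.5 times, and for medians, within a limit set by the interquartile range of the genes). A reversal was counted only where the main interval excluded 0, and 0 values reversed in that sense. A change of sign within an interval that included 0 was not counted as a reversal. All 175 recomputed log2 ratios of the genes lay within their intervals, and other scalings moved them by at most 0.058. Under a minimum of 10 reads in each library, 5 of the genes remained for a count, and of these 1 was called higher in 4T1-CM with DMSO, 1 with CH223191 and 1 in both, where 3 had been, and 0 with CH223191 in normal medium, where 1 had been, since Lif, Il6 and Il27 were then left out. Without a filter, 1 gene, Il27, was called lower in 4T1-CM with CH223191, where 0 had been.

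Over all genes, the counts called higher and lower were 1650 and 833 in 4T1-CM with DMSO and 1619 and 1066 with CH223191. Under that minimum they were 847 and 503, and 861 and 683. For CH223191 they were 588 and 392 in normal medium and 361 and 344 in 4T1-CM. They became 226 and 89, and 83 and 53, under the same minimum. With a prior count of 5 they became 356 and 166, and 163 and 163. Among protein-coding genes alone they were 317 and 216, and 150 and 199. Without a filter, 703 genes were called lower with CH223191 in normal medium. The counts in 4T1-CM were then 732 for higher and 753 for lower. Pairing by replicate number was not possible, because all 4 libraries carry the same number, with 1 library per condition. The additive fits compare media within each inhibitor condition. Depth limits Il6, Il12b, Il27, Il10 and, in normal medium, Lif.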

Other observations

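Genes chosen after their values were seen showed a difference in the control libraries. In normal medium, Ebi3 was higher with CH223191 than with DMSO by a log2 ratio of 1.12 (0.52 to 1.77) and Socs3 by 1.12, from 20 and 44 reads. Their responses to 4T1-CM were smaller with CH223191, with a difference of log2 ratios of -0.89 (-1.56 to -0.23) for Ebi3 and -1.24 (-2.01 to -0.47) for Socs3. For Saa3 the difference was -0.80 (-1.04 to -0.55). The responses of Cebpb and Socs2 were larger with CH223191, by 1.27 (1.18 to 1.37) and 1.49 (0.24 to 2.73). Maf had negative ratios, -1.05 with DMSO and -0.31 with CH223191, a difference of 0.74 (0.54 to 0.94). Of 64 genes of the lists and families with such a difference, 15 had an interval above 0 and 10 an interval below 0. The same share over all genes kept was not computed, so these counts say nothing particular to these lists. In 4T1-CM the log2 ratio of Ebi3 between CH223191 and DMSO was 0.23 (-0.08 to 0.53). These intervals cover counting error only, and whether cultures of 1 condition differ by as much was not tested.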
